A study of Mus musculus with 4 samples.

Results

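The Hsp70 and Hsp110 chaperone family was followed in cultured T helper 17 (Th17) cells, which secrete interleukin 17 and take part in barrier defence and autoimmunity. The members were the 10 rows of the deposited gene table named Hspa1a, Hspa1b, Hspa1l, Hspa2, Hspa4, Hspa4l, Hspa8, Hspa9, Hspa14 and Hsph1, of 34745 gene rows in all. RNA was sequenced from 2 Setd2-CD4 cre libraries (replicates 22 and 24) and 2 wild-type (WT) libraries (replicates 13 and 15), all started from naive CD4+ T cells that were taken from C57BL/6 spleens and held for 3 days in Th17 conditions. Setd2 encodes the methyltransferase that trimethylates lysine 36 of histone H3, and Cre driven by Cd4 sequences acts in T cells from thymic development on. The sources used here do not state the ages of the mice, the exons removed or whether a library came from 1 animal. The family was chosen by its measured fold changes between these genotypes, its stress-inducible members being among the largest. The members' differences between genotypes are therefore given below as descriptions. The edgeR calls of members and of their sums come from the same contrast, are descriptions too and support nothing.

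Hsp70 proteins bind unfolded stretches of other proteins and release them in a cycle driven by ATP. J-domain proteins (Hsp40) deliver clients and speed ATP hydrolysis, and Hsp110 proteins, large relatives of Hsp70, act as nucleotide exchange factors that reset the cycle. In mammals, heat shock factor 1 (Hsf1) binds heat shock elements, repeats of the unit GAA and its complement TTC, and switches on the inducible genes when proteins unfold. Activated T cells are known to raise Hsp70 and Hsp90 RNA as they grow.

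The promoters of the members whose RNA differed most are shown first, because heat shock elements are the known control sequence of this family, together with that of Hspa2, whose RNA was nearly level between genotypes. Each runs 5′ to 3′ over 250 bases before and 30 bases after the start of transcription, from RefSeq on GRCm38.p6. Exact pairs or longer runs of the GAA and TTC repeats are in capitals.
Hspa1a, chr17:34972127-34972406, minus strand: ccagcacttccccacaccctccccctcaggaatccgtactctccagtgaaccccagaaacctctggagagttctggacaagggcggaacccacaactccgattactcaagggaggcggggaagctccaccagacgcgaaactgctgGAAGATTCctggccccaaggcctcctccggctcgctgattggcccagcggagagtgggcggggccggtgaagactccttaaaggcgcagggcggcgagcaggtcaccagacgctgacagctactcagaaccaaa
Hspa1b, chr17:34959209-34959488, minus strand: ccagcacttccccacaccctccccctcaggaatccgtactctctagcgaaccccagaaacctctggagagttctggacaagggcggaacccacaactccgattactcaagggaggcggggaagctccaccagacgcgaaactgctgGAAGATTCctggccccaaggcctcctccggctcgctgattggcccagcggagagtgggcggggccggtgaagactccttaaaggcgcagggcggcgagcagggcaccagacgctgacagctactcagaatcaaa
Hspa1l, chr17:34972453-34972732, plus strand: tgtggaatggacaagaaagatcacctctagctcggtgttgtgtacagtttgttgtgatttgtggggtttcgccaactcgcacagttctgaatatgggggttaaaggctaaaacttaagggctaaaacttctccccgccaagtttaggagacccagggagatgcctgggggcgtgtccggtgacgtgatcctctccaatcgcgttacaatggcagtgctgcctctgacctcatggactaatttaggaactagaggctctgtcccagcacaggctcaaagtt
Hsph1, chr5:149636286-149636565, minus strand: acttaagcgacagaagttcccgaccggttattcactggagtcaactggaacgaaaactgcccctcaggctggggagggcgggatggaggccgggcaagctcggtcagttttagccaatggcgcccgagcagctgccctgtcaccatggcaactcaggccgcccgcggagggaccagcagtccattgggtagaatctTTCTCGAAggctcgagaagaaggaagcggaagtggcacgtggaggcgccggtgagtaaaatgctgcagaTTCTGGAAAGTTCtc
Hspa2, chr12:76404120-76404399, plus strand: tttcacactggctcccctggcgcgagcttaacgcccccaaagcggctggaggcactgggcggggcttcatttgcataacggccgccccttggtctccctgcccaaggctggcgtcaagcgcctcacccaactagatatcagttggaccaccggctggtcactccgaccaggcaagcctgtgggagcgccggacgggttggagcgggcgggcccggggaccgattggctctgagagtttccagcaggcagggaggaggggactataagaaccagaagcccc

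RefSeq windows of 300 bases (250 before to 50 after the start) were found for 8 of the 10 members, with a second start for Hsph1. Both orders of a pair of repeats, GAANNTTC and TTCNNGAA, read the same on either strand and were searched with the longer GAANNTTCNNGAA and its reverse complement TTCNNGAANNTTC, in which the pairs overlap. Hspa1a and Hspa1b each held GAANNTTC from -104 to -97, and their windows differed at 4 of 300 bases. Hsph1 held TTCNNGAA from -54 to -47 and the longer TTCNNGAANNTTC from 15 to 27 bases downstream of the start used here. The windows of Hspa1l, Hspa2, Hspa4, Hspa4l and Hspa14 held no such letters. The pair in the Hspa1a window lies between the starts of Hspa1a and Hspa1l, upstream of both, but outside the Hspa1l window. Either pair was present in 15.1% and either longer form in 0.603% of the 32851 windows in the table. Only exact repeats were searched, so a matched pair can be part of a longer element with inexact units. In the Hspa1a and Hspa1b windows another GAA, in lower case, lies shortly upstream of the pair (gaaactgctgGAAGATTC). A match describes the letters in the window and is not a measured binding site.

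Libraries held 11007343 and 11322621 counts in Setd2-CD4 cre and 12518415 and 12414098 counts in WT. The counts were scaled to CPM (counts in a library of 1000000) with TMM factors. Setd2 itself stood at 144 and 153 CPM in Setd2-CD4 cre and at 184 and 176 CPM in WT, a sum over the whole gene that does not test the removal of single exons. All 14 T cell and Th17 markers were tested and present in each library, with Cd4 at 940.2 and 1139 CPM in Setd2-CD4 cre and at 1121 and 1084 CPM in WT. The markers were not level between genotypes. By edgeR 5 of the 14 were higher and 4 lower, against 16.2% and 14.5% of all genes. Those lower were Cd3e, Cd3d, Cd3g and Cd5. Of 14 B cell markers, 12 passed as higher and none as lower by edgeR, their summed level was 807 and 564 CPM in Setd2-CD4 cre against 269 and 230.1 CPM in WT, and none was at 0. Other lists held calls as well. Of 6 tested CD8 T and NK cell markers, Klrd1 and Klre1 were higher (list sums 227 and 122 CPM in Setd2-CD4 cre, 92.9 and 113 CPM in WT), and of 4 tested dendritic cell markers, Flt3 and Batf3 were (54.5 and 58.8 CPM in Setd2-CD4 cre, 33.5 and 33.8 CPM in WT). Siglech and Cd209a of the dendritic list were at 0 in every library, and no macrophage or neutrophil marker was called. The part of these markers in the chaperone differences was not tested. In bulk RNA, fewer cells of a type and less RNA per cell cannot be told apart. Fold changes of all genes had a median of -0.01 on the log2 scale, which moved by -0.15 with library totals, by -0.11 with upper-quartile factors and by -0.11 in limma on FPKM. Of all calls, 52.7% were higher with TMM, against 32.9%, 37.4% and 31.6% under those settings in the same order, so small differences depend on the scaling.

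The stress-inducible Hsp70 genes Hspa1a and Hspa1b, together with Hspa1l described below, showed the widest differences in the family. Hspa1a (ENSMUSG00000091971, chromosome 17, 34969190 to 34972156 in GRCm38, 1 exon) stood at 154 and 135 CPM in Setd2-CD4 cre libraries 22 and 24, against 7.93 and 4.34 CPM in WT libraries 13 and 15. Hspa1b (ENSMUSG00000090877, chromosome 17, 34956436 to 34959238, 1 exon) stood at 192 and 161 CPM in Setd2-CD4 cre and at 7.55 and 3.50 CPM in WT. For both genes every Setd2-CD4 cre library lay far above both WT libraries, and WT 15 was the lowest. Summed, as near-identical copies, they had 3552 and 3227 counts in Setd2-CD4 cre and 203 and 103 counts in WT. The sum averaged 321 ± 35.5 CPM in Setd2-CD4 cre and 11.7 ± 5.40 CPM in WT (SD, n = 2 each). This is 27.5-fold, or 4.78 on the log2 scale with an SE of 0.35. In Setd2-CD4 cre, Hspa1b had a higher mean FPKM than 95.4% and Hspa1a than 93.4% of the 12927 genes tested, against 26.0% and 26.9% in WT. The deposited FPKM imply lengths above the annotated exons for several members but not for Hspa1a and Hspa1b. These ranks among genes therefore depend on the length used.

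**Figure D1:**
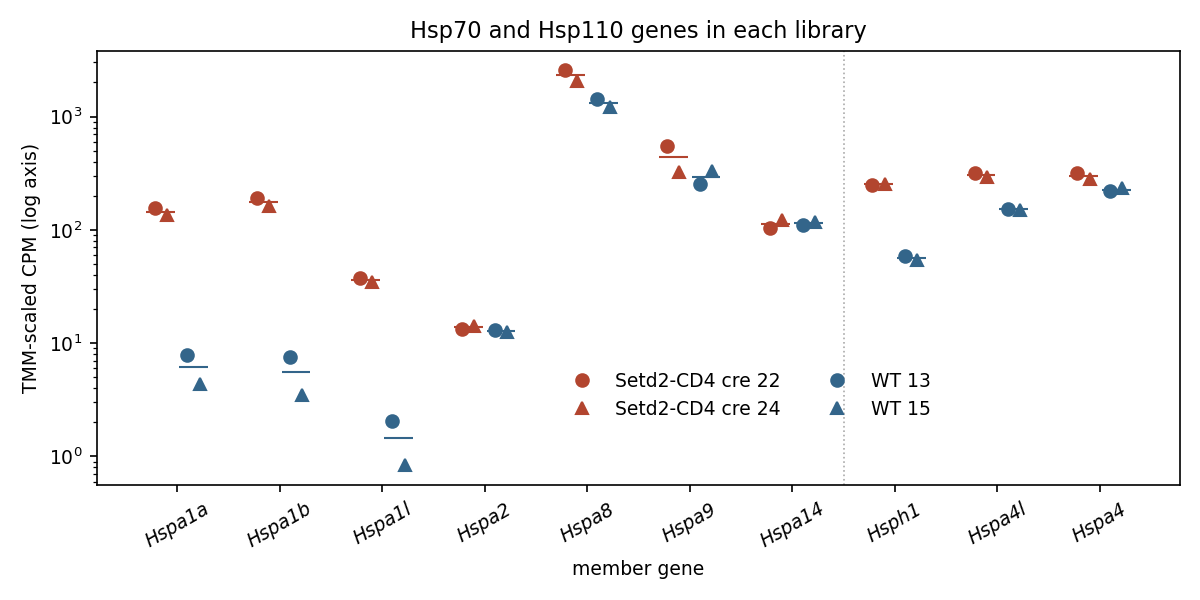
TMM-scaled CPM on a log axis of each member in the Setd2-CD4 cre libraries (red, 22 as circles, 24 as triangles) and the WT libraries (blue, 13 as circles, 15 as triangles), with short lines at the means of 2 libraries. Hspa1a, Hspa1b and Hspa1l lie below 10 CPM in WT and above 30 CPM in Setd2-CD4 cre, while Hspa2 and Hspa14 lie at about the same level in all 4 libraries. The dotted line sets the Hsp110 genes apart.

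Reads of the copies can be exchanged between them. The longest reading frames of Hspa1a and Hspa1b agree at 1919 of 1926 aligned bases, and 58.8% of the 50-base stretches of Hspa1a also occur in Hspa1b. Hspa1a took 44.6% and 45.5% of the pair's counts in Setd2-CD4 cre 22 and 24 (95% exact binomial intervals 43.0 to 46.2% and 43.8 to 47.3%), against 51.2% and 55.3% in WT 13 and 15 (44.1 to 58.3% and 45.2 to 65.1%). Both WT shares lay above both Setd2-CD4 cre shares, though the interval of each WT library reaches into that of each Setd2-CD4 cre library. The difference in split was not tested. The intervals cover counting error only.

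Hspa1l (ENSMUSG00000007033, chromosome 17, 34972703 to 34979285, 2 exons), an Hsp70 gene known in mice for its expression in testis, starts 547 bases from the start of Hspa1a on the opposite strand. It had 382 and 380 counts in Setd2-CD4 cre and 27 and 11 counts in WT, which is 37.2 and 34.8 CPM against 2.06 and 0.838 CPM. Its log2 fold change was 4.63 (SE 0.32). Hspa1l made up 9.71% and 10.5% of the counts of the 3 Hspa1 genes in Setd2-CD4 cre and 11.7% and 9.65% in WT, a share that stayed near the same value while the sum of the 3 genes differed 27.2-fold. Of the 50-base stretches of Hspa1l, 9.57% also occur in Hspa1a and 7.72% in Hspa1b. How the authors counted reads that fit several genes is not stated here, and the part of shared reads in the Hspa1l counts was not tested.

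Among the constitutive Hsp70 genes, Hspa8 (ENSMUSG00000015656, chromosome 9, 40800984 to 40805200), which encodes the abundant cytosolic Hsc70, stood at 2549 and 2061 CPM in Setd2-CD4 cre and at 1440 and 1214 CPM in WT. Both Setd2-CD4 cre libraries lay above both WT libraries, and the log2 fold change was 0.80 (SE 0.16). Hspa9 (ENSMUSG00000024359, chromosome 18, 34937414 to 34954357), the gene of the mitochondrial Hsp70 mortalin that pulls imported proteins into the matrix, stood at 551 and 324 CPM in Setd2-CD4 cre and at 256 and 327 CPM in WT. The high value was that of Setd2-CD4 cre 22 alone, and library 24 lay between the WT libraries. The log2 fold change of 0.58 (SE 0.29) became 0.16 when library 22 was left out and 0.92 when library 24 was.

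Hspa2 (ENSMUSG00000059970, chromosome 12, 76404176 to 76406934), an Hsp70 gene of male germ cells in mice, had 13.3 and 14.2 CPM in Setd2-CD4 cre and 13.0 and 12.6 CPM in WT. Its log2 fold change was 0.10 (SE 0.18) and turned negative with library totals, upper-quartile factors and FPKM. Hspa14 (ENSMUSG00000051396, chromosome 2, 3488850 to 3512814), whose human protein works with a J-domain partner at the ribosome, had 103 and 123 CPM in Setd2-CD4 cre and 111 and 117 CPM in WT. The genotypes overlapped, and its log2 fold change of -0.01 (SE 0.12) took either sign when libraries were left out. These genes, with small differences between genotypes, stand beside inducible members that differed over 20-fold in the same libraries.

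The Hsp110 genes were all higher in Setd2-CD4 cre, by unequal amounts. Hsph1 (ENSMUSG00000029657, chromosome 5, 149614287 to 149636376), the heat-inducible Hsp110, stood at 251 and 255 CPM in Setd2-CD4 cre against 58.3 and 53.8 CPM in WT. Its log2 fold change of 2.17 (SE 0.11) was 4.51-fold, and the replicates of each genotype lay close together. Hspa4l (ENSMUSG00000025757, chromosome 3, 40744495 to 40796103), a stress-responsive Hsp110 relative, stood at 317 and 292 CPM in Setd2-CD4 cre and at 154 and 149 CPM in WT, a log2 fold change of 1.01 (SE 0.11). Hspa4 (ENSMUSG00000020361, chromosome 11, 53259814 to 53300457), its constitutive relative, stood at 315 and 280.0 CPM in Setd2-CD4 cre and at 219 and 233 CPM in WT, a log2 fold change of 0.39 (SE 0.11). No library of one genotype reached into the range of the other for any of the 3 genes.

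**Figure D2:**
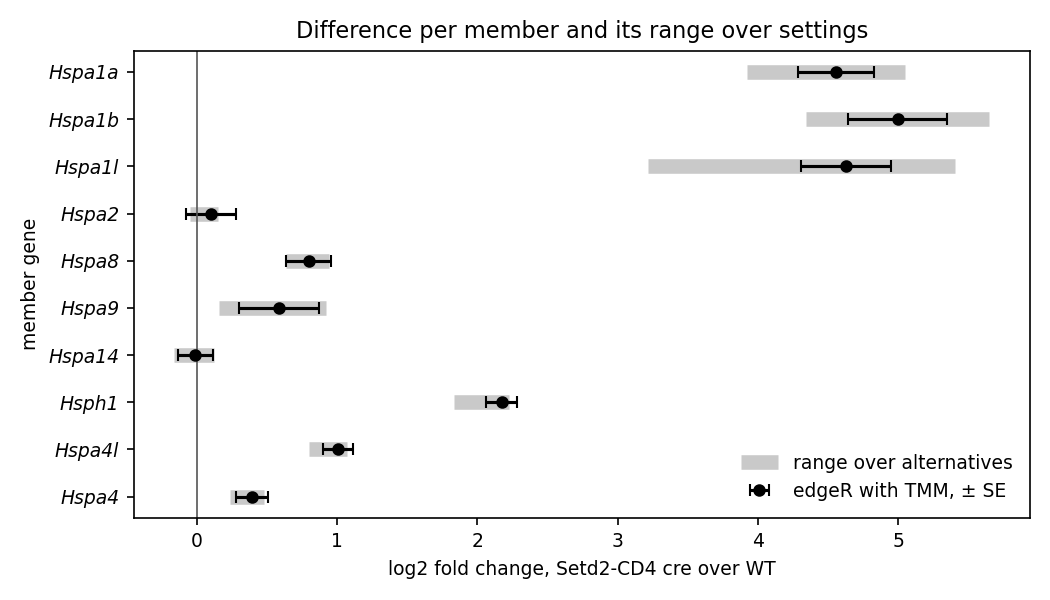
Log2 fold change, Setd2-CD4 cre over WT, of each member with its SE (points and bars, edgeR with TMM, n = 2 libraries each), and the range of the estimate over 10 alternative settings (grey). Hspa1a, Hspa1b and Hspa1l stay above 3 and Hsph1 above 1.8 throughout, and the ranges of Hspa2 and Hspa14 include 0.

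All 10 members passed the filter on low counts. At edgeR's adjusted p of 0.05 over the 12927 genes tested, 7 members were past the threshold as higher and none as lower, against 16.2% and 14.5% of all genes. For 8 members all Setd2-CD4 cre libraries lay above all WT libraries, against 34.6% of all genes. The choice of members used this contrast, so the counts describe the members and support nothing. Hspa4 was not past the threshold under 5 of 10 alternatives, with log2 fold changes of 0.35 without WT 13, 0.44 without WT 15, 0.28 with upper-quartile factors and 0.24 with library totals and in limma on FPKM. Hspa8 was not without WT 15 (0.68), nor Hspa1b without Setd2-CD4 cre 22 (4.87) or 24 (5.12), where 1 library stood for a genotype and was assumed to vary like the others.

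The members also differed in how far replicates of 1 genotype lay apart, which the choice of members did not use. In WT, the sum of Hspa1a and Hspa1b was 1.97-fold higher in replicate 13 than in replicate 15 (95% counting interval 1.55 to 2.53). Of 10588 tested genes with a mean of at least 50 counts, 1.16% had WT replicates as far apart on the log2(CPM + 0.5) scale, and the median gene differed 1.08-fold. That mean is over all 4 libraries, and Hspa1l, with 27 and 11 counts in WT, reaches it through Setd2-CD4 cre. The genes were not matched for WT level, so the 1.16% does not compare the sum with genes of similar WT counts. In Setd2-CD4 cre the same sum differed 1.17-fold (1.11 to 1.23), and 43.3% of genes had replicates as far apart. Hspa9 was 1.70-fold higher in Setd2-CD4 cre 22 than in 24 (1.63 to 1.77), where 4.16% of genes were as far apart. In WT, Hspa1l was 2.46-fold higher in replicate 13 (1.18 to 5.49), Hspa8 1.19-fold and Hsph1 1.08-fold, while Hspa9 was lower in replicate 13, at 0.783 of its level in replicate 15.

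Between genes, levels were compared per length. The deposited FPKM imply a length of 9084 bases for Hspa8, although its span in the same table is 4217 bases, and for Hspa4, Hspa4l, Hspa9, Hspa14 and Hsph1 the implied length also exceeds the merged exons in GENCODE. The composition of the family is therefore given in CPM per kilobase of merged exons, with FPKM beside it. The merged exons of Hspa8 come to 4301 bases, which also exceeds its deposited span. Neither length is thus known to be that of the RNA, and the shares below depend on it. The family summed to 1003 and 816 CPM per kilobase in Setd2-CD4 cre and to 492 and 455 in WT, a ratio of means of 1.92. Hspa8 made up 59.1% and 58.8% of the sum in Setd2-CD4 cre and 68.1% and 62.0% in WT. The 3 Hspa1 genes made up 13.5% and 14.3% in Setd2-CD4 cre against 1.26% and 0.670% in WT. Of the net difference between the genotypes' means, Hspa8 accounted for 52.2%, the 3 Hspa1 genes for 27.9% and the 3 Hsp110 genes for 12.1%. On the deposited FPKM the sums were 593 and 495 in Setd2-CD4 cre and 296 and 286 in WT, with the Hspa1 genes at 21.3% and 22.8% against 2.19% and 1.13%. The order of the gains depended on the length used, since on the deposited FPKM the 3 Hspa1 genes accounted for 45.3% of the net difference, Hspa8 for 34.1% and the 3 Hsp110 genes for 12.8%.

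**Figure D3:**
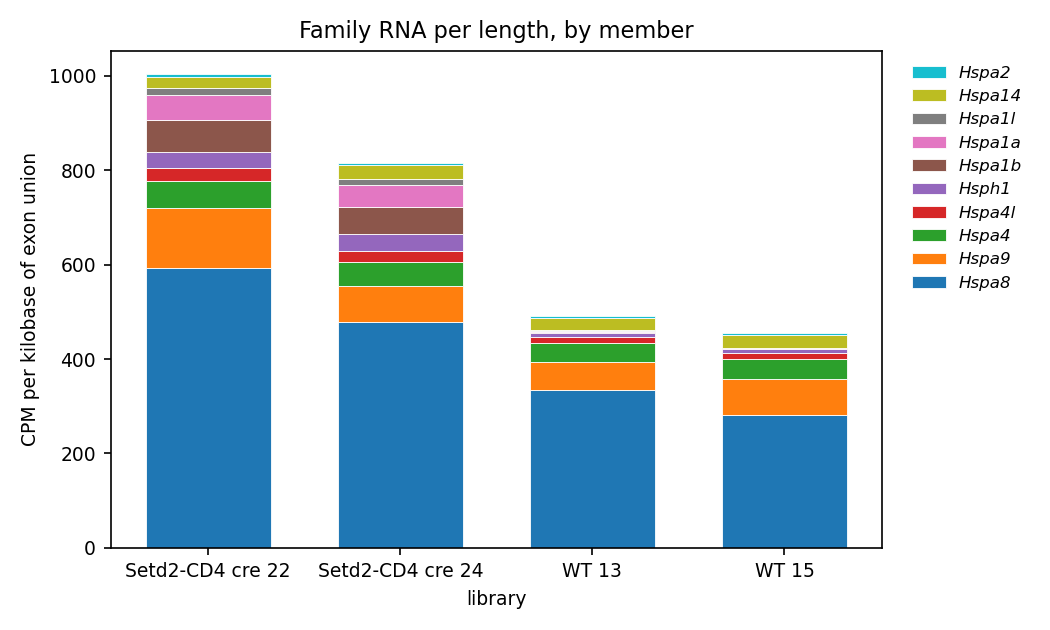
CPM per kilobase of merged exons of the 10 members, stacked for each library. The Setd2-CD4 cre bars reach 1003 and 816 and the WT bars 492 and 455, with Hspa8 (blue, at the bottom) the largest block in each and Hspa1a, Hspa1b and Hspa1l visible only in the Setd2-CD4 cre bars.

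In order of mean FPKM in Setd2-CD4 cre, Hspa8 (240.1 ± 30.5) led Hspa9 (82.5 ± 28.4), Hspa1b (59.6 ± 5.93), Hspa1a (46.1 ± 3.38) and Hspa4 (45.8 ± 2.72), followed by Hsph1, Hspa4l, Hspa1l, Hspa14 and Hspa2 (5.19 ± 0.349; SD, n = 2 each). The ranges of 2 libraries overlapped between Hspa9 and Hspa1b, between Hspa1a and Hspa4, and between Hsph1 and Hspa4l. In WT the order was Hspa8 (153.7 ± 17.4), Hspa9 (61.4 ± 11.0), Hspa4 (38.8 ± 1.98), Hspa4l, Hspa14, Hspa2, Hsph1, Hspa1a (2.17 ± 0.886), Hspa1b (2.07 ± 1.06) and Hspa1l (0.615 ± 0.363). There the ranges overlapped between Hspa2 and Hsph1 and between Hspa1a and Hspa1b. Per kilobase of merged exons, Hspa14 ranked as number 7 in Setd2-CD4 cre and number 4 in WT. Its merged exons, 4347 bases, are those of the GENCODE gene from 3504527 to 3512790. The deposited span is longer and is that of another GENCODE gene also named Hspa14. The counts and the length may therefore belong to different gene models, and these ranks of Hspa14 are uncertain.

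The genes around the Hspa1 cluster showed smaller differences than the cluster itself. The cluster lies in the class III region of the major histocompatibility complex on chromosome 17, and 11 other genes lay within 50 kb of it, of which 9 were tested. By edgeR 2 of the 9 were higher and 1 lower, against 16.2% and 14.5% of all genes. Neu1, the lysosomal neuraminidase gene, was higher (155 and 142 CPM in Setd2-CD4 cre, 67.4 and 59.1 CPM in WT, log2 fold change 1.23, SE 0.12, edgeR adjusted p = 0.00111). The gene 1110038B12Rik, also within 50 kb, was also higher (101 and 72.2 CPM in Setd2-CD4 cre, 37.3 and 35.0 CPM in WT, 1.26, SE 0.17, edgeR adjusted p = 0.00262). Gm10501, which shares 1778 exonic bases with Hspa1l on the opposite strand, fell by 1.62 on the log2 scale (7 and 12 counts in Setd2-CD4 cre, 32 and 41 counts in WT, edgeR adjusted p = 0.0311). Its call was lost without WT 13 (edgeR adjusted p = 0.112), WT 15 (0.237) or Setd2-CD4 cre 22 (0.0662) and in DESeq2, and without strand its reads and those of Hspa1l cannot be told apart. The other 6 did not pass. Their log2 fold changes were 0.02 for Ehmt2, a histone methyltransferase gene, -0.37 for Lsm2, an RNA-binding protein gene, 0.26 for Vars, a tRNA synthetase gene, 1.03 for Vwa7, -1.24 for Sapcd1 and -0.20 for Msh5.

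**Figure D4:**
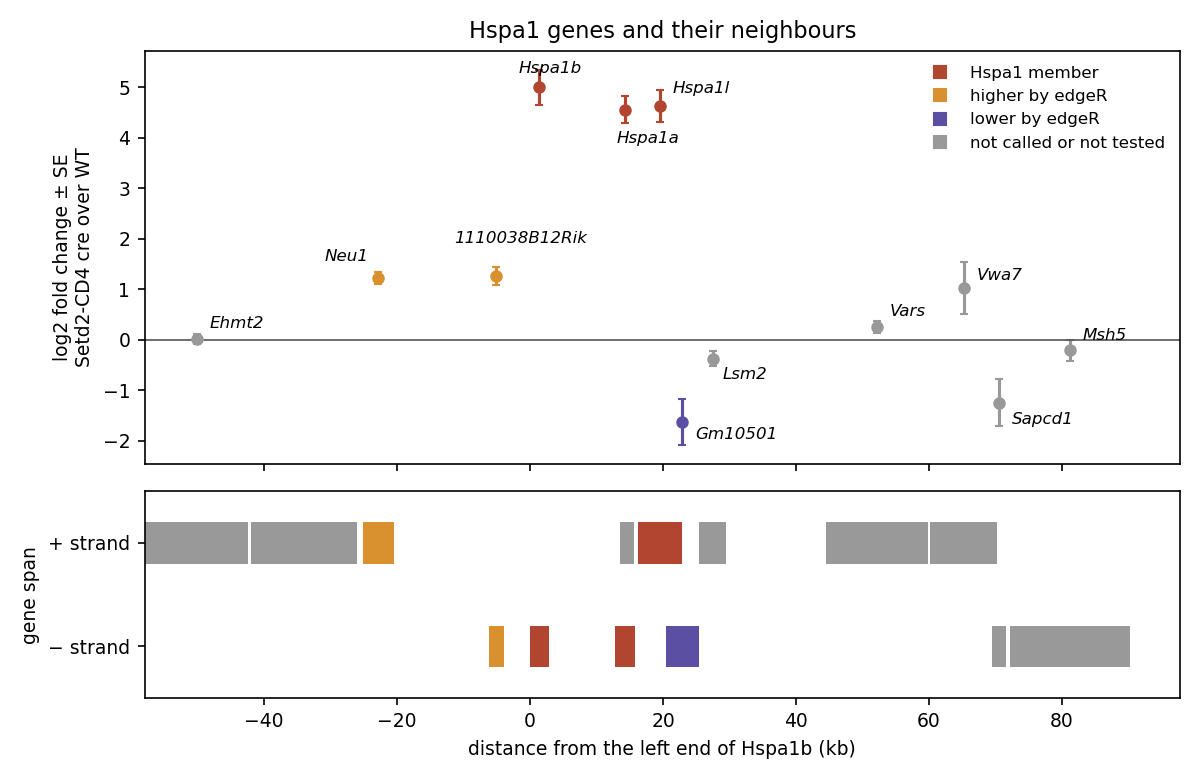
Log2 fold change with SE, Setd2-CD4 cre over WT (n = 2 libraries each), of the Hspa1 genes and the tested genes within 50 kb, against distance in kilobases from the left end of Hspa1b, with the span and strand of each gene underneath. The 3 Hspa1 genes lie between 4.56 and 4.99, and the other tested genes between -1.62 and 1.26.

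The partners of Hsp70 moved in both directions. Of 19 tested J-domain genes, 6 rose and 2 fell by edgeR, against 16.2% and 14.5% of all genes, with a median log2 fold change of 0.12. Dnajb1, the stress-inducible Hsp40, rose (232 and 183 CPM in Setd2-CD4 cre, 70.5 and 72.0 CPM in WT, 1.54, SE 0.14, edgeR adjusted p = 0.000915). Dnaja1, a farnesylated cytosolic Hsp40, rose (203 and 205 CPM in Setd2-CD4 cre, 93.8 and 90.5 CPM in WT, 1.15, SE 0.10, edgeR adjusted p = 0.000939). Dnajb6, which restrains aggregation, rose by 0.71 on the log2 scale (edgeR adjusted p = 0.00374), a call lost without WT 15 (0.0572), and Dnajb5 fell by 1.13 (edgeR adjusted p = 0.00331). With library totals 3 of the list rose and 3 fell, and without WT 15 the numbers were 2 and 1.

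Of 17 genes listed as exchange factors and cochaperones, 6 rose and 2 fell by edgeR, against 16.2% and 14.5% of all genes, with a median log2 fold change of 0.13. The list also holds Stam and Hgs, which encode endosomal sorting proteins and not Hsp70 cochaperones, and both are among the 6. Stam rose by 0.69 on the log2 scale (SE 0.11, edgeR adjusted p = 0.0044), and Ttc1, a repeat protein that can bind Hsp70, by 0.83 (SE 0.16, edgeR adjusted p = 0.00757). Bag6 (0.43, edgeR adjusted p = 0.019) and Bag3, the exchange factor of stress-induced autophagy (0.77, edgeR adjusted p = 0.0207), also rose. Ttc1, Bag6 and Bag3 lost their calls without WT 15 (edgeR adjusted p = 0.0587, 0.203 and 0.183), and Bag6 also without WT 13 (0.142), with library totals and in limma on FPKM. Without WT 15, 1 gene of this list, Stam, was higher and none lower.

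The list of heat shock factors and their binding proteins had 5 tested genes, the factors Hsf1, Hsf2 and Hsf4 and the binding proteins Hsbp1 and Hsf2bp. By edgeR 1 of them rose and none fell, against 16.2% and 14.5% of all genes. It was Hsf2, which encodes a factor that binds the same elements as Hsf1 (72.7 and 67.6 CPM in Setd2-CD4 cre, 40.9 and 35.6 CPM in WT, log2 fold change 0.88, SE 0.13, edgeR adjusted p = 0.00337). Hsf1 itself stood at 46.7 and 44.6 CPM in Setd2-CD4 cre and at 35.5 and 35.7 CPM in WT and did not pass (0.36, SE 0.13, edgeR adjusted p = 0.065). Hsf1 is known to be controlled mainly at the protein, which RNA counts do not measure.

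Of 19 tested other heat shock response genes, 9 rose and 1 fell by edgeR, against 16.2% and 14.5% of all genes, with a median log2 fold change of 0.37. Hsp90aa1, the inducible Hsp90, rose (895 and 719 CPM in Setd2-CD4 cre, 318 and 288 CPM in WT, 1.41, SE 0.14, edgeR adjusted p = 0.00114). Hspe1, the mitochondrial cochaperonin, rose (233 and 152 CPM in Setd2-CD4 cre, 72.5 and 66.8 CPM in WT, 1.47, SE 0.20, edgeR adjusted p = 0.00427), and Hspd1, its chaperonin partner, rose by 0.55 (edgeR adjusted p = 0.0357). The polyubiquitin gene Ubb (0.94, edgeR adjusted p = 0.00292) and the constitutive Hsp90ab1 (0.59, edgeR adjusted p = 0.0319) rose as well. Hspb1, the small heat shock protein gene, had 15 and 33 counts in Setd2-CD4 cre and 9 and 0 counts in WT and did not pass (edgeR adjusted p = 0.0725). Hsp90ab1 lost its call without WT 13 (edgeR adjusted p = 0.246) and WT 15 (0.16), and Hspd1 without WT 13 (0.242) and Setd2-CD4 cre 22 (0.144). Both also lost it with upper-quartile factors, with library totals and in limma on FPKM. With library totals, 4 genes of the list rose.

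The relatives of Hsp70 in the endoplasmic reticulum showed smaller fold changes than the Hspa1 genes. Hyou1, the large Hsp70 relative of that compartment, rose (152 and 178 CPM in Setd2-CD4 cre, 105 and 115 CPM in WT, log2 fold change 0.59, SE 0.12, edgeR adjusted p = 0.0109), a call lost without WT 13 (0.11), without WT 15 (0.0587) and in limma on FPKM. Hspa5, the gene of BiP, stood at 354 and 741 CPM in Setd2-CD4 cre and at 378 and 271 CPM in WT, with Setd2-CD4 cre 24 alone above the WT range (0.75, SE 0.44, edgeR adjusted p = 0.282). Hspa5 was thus highest in library 24 and Hspa9 in library 22. Of 4 tested relatives, 1 rose and none fell by edgeR, against 16.2% and 14.5% of all genes.

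Immediate early genes, which respond within minutes to stimulation or handling, moved both ways. Of 20 tested, 5 rose and 7 fell by edgeR, against 16.2% and 14.5% of all genes, with a median log2 fold change of -0.21. Klf6 (1.04, edgeR adjusted p = 0.00113) and Jun (0.97, edgeR adjusted p = 0.00177) rose, and Jund (-1.18, edgeR adjusted p = 0.00127) and Ier2 (-1.14, edgeR adjusted p = 0.0019) fell. Without WT 13 the numbers were 3 and 3.

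**Figure D5:**
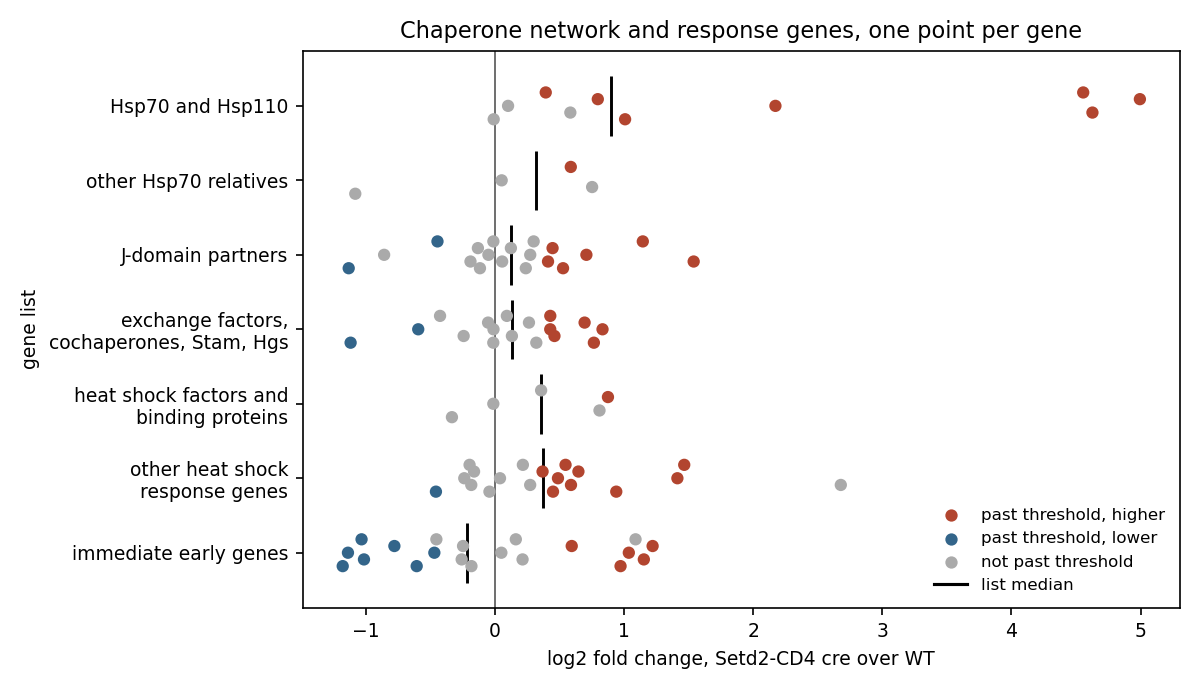
Log2 fold change, Setd2-CD4 cre over WT (n = 2 libraries each), of each tested gene in 7 lists, red where past the threshold as higher, blue as lower and grey otherwise, with a bar at the median. The 3 Hspa1 genes lie to the right of all genes called in the other lists, and the immediate early genes spread to both sides of 0.

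Genes with a heat shock element in their window were also counted across the genome. Among genes other than the members, 48 tested genes had a window with the longer GAANNTTCNNGAA or TTCNNGAANNTTC, and 8 of them were higher (16.7%) and 5 lower (10.4%) by edgeR, with a median log2 fold change of 0.01. The pair of repeats, the exact form matched in the Hspa1a and Hspa1b windows, was present in 1310 tested genes, of which 17.6% were higher and 14.8% lower. A longer element with an inexact unit was counted here as a pair or not at all. Of 9316 tested genes with any window, 16.5% were higher and 14.9% lower, with a median of -0.01. This grouping was chosen after the values of the members were seen. Of the listed genes, Dnajb6, Hspd1, Hspe1 and Chordc1 had the longer form. On the log2 scale Hspe1 differed by 1.47 (edgeR adjusted p = 0.00427), Dnajb6 by 0.71 (0.00374) and Hspd1 by 0.55 (0.0357), all called higher. The calls of Dnajb6 and Hspd1 were lost under some settings, as given above. Chordc1, a cochaperone gene of Hsp90, differed by -0.04 (edgeR adjusted p = 0.785) and was not called. The window ends 250 bases before the start, so elements farther away were not read.

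The genes whose pattern over the 4 libraries lay closest to the summed Hspa1a and Hspa1b, by Euclidean distance of centred log2 CPM, were Capn11 (distance 0.483), Haglr (0.734), Cxcl2 (1.20), Cxcl3 (1.21) and Rasgrp3 (1.31). Capn11 had 76 and 47 counts in Setd2-CD4 cre and 1 and 0 counts in WT, and Haglr 35 and 50 against 1 and 0. Cxcl3, a chemokine gene, had 773 and 491 counts in Setd2-CD4 cre and 24 and 38 in WT, so its WT replicates were in the other order than those of the Hspa1 genes. The match uses the same genotype difference by which the family was chosen, so it describes these genes and supports nothing. Cxcl2 had 102 and 51 counts in Setd2-CD4 cre and 8 and 0 in WT, and Rasgrp3 164 and 96 against 14 and 8. Capn11, Haglr, Cxcl2 and Rasgrp3 passed the filter through the Setd2-CD4 cre libraries, and their distances depend on the prior count of 2. By the same measure Hsph1 lay at 2.74, Hspa4l at 3.89, Hspa8 at 4.08 and Hspa14 at 4.92.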

How the data were processed

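RNA was measured in 4 libraries, 2 per genotype, grouped by sample title. Whole-number counts per gene and FPKM values were deposited by the authors, per the file headers. Bowtie2, RSEM, GRCm38.p6 and mm10 are named in the submitters' processing notes without roles. The handling of strand and of reads shared by genes is not given in the sources used here. No per-sample column was left unused.

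Counts were tested with edgeR 4.0.16 in R 4.3.3 (filterByExpr, TMM, robust quasi-likelihood test) with Benjamini-Hochberg adjustment over 12927 genes and a threshold of 0.05. Each fold change has Setd2-CD4 cre on top, and SD is over 2 libraries. For 1 gene the smallest p of an exact permutation test is 0.333 (two-sided), so p-values come from the model across genes. The labels do not say that libraries are separate cultures, so p-values measure only how far these samples lie apart, which may be technical. DESeq2 1.42.0, limma 3.58.1 on log2(FPKM + 1), other scalings, other filters and leaving out each library were tried.

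Exons came from GENCODE release M21, which held 34267 of 34745 identifiers, and 7 members had the same span in both. Hspa2, Hspa8 and Hspa14 had other spans there, and those printed are the deposited ones. Of the listed symbols, 165 matched directly, 1 through a synonym and 1 was a repeated symbol. The members and gene lists were chosen with earlier results of these data known. Genes named are the members, of each list up to 4 past the threshold with the smallest p, 12 set genes such as Hsf1, the tested neighbours, and the 5 nearest patterns (log2 CPM with a prior count of 2) without members or predicted genes. A gene that this rule also names is not reported here.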

Additional observations from a re-analysis of the deposited data

How the results depend on the processing

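No paired analysis was possible because the genotypes share no replicate number. Under the 10 alternatives, 8 members (Hspa1a, Hspa1b, Hspa1l, Hspa4, Hspa4l, Hspa8, Hspa9 and Hsph1) kept a positive log2 fold change, and no member was called lower. Hspa2 turned to -0.0091 with upper-quartile factors, -0.048 with library totals and -0.042 in limma on FPKM. Hspa14 turned to 0.0002 in DESeq2, and leaving out single libraries moved it between -0.14 and 0.12. Leaving out each library in turn left 5 to 7 members higher. It moved the sum of Hspa1a and Hspa1b between 4.37 and 5.35 and that of the 3 Hspa1 genes between 4.34 and 5.36. Both sums missed the threshold without Setd2-CD4 cre 22 (4.67 and 4.66) and without 24 (4.89 and 4.87), where 1 library stood for that genotype. Over all genes, leaving out a library gave 718 to 3068 higher and 564 to 2903 lower, limma gave 1267 higher and library totals 2879 lower. Higher and lower calls over the same omissions were 0 to 1 and 0 to 1 for the Hsp70 relatives, 2 to 9 and 1 to 3 for J-domain genes, 1 to 8 and 0 to 2 for the exchange factor and cochaperone list, 1 to 2 and 0 to 1 for heat shock factors and their binding proteins, 4 to 11 and 0 to 1 for other heat shock genes, 3 to 6 and 3 to 8 for immediate early genes, and 2 to 3 and 0 to 1 for the neighbours. Limma gave 0 relatives higher, 3 J-domain genes and 3 cochaperones higher, 1 gene of the heat shock factor list lower, 5 other heat shock genes higher and 3 neighbours lower. Library totals gave 3, 3, 1, 4 and 2 for those lists from J-domain genes on, and upper-quartile factors gave 3 J-domain genes and 4 other heat shock genes higher and 2 neighbours lower. DESeq2 gave 0 cochaperones, 4 immediate early genes and 0 neighbours lower. The cause of these shifts was not tested. Per kilobase of merged exons, 9 of 20 ranks of the members differed from those by FPKM. Depth limits the Hspa1 genes most in WT, where the summed Hspa1a and Hspa1b had 203 and 103 counts.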
